A study of Homo sapiens with 3 samples.

Results

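Genes of integrins, laminins and matrix adhesion were examined in 22Rv1 cells. They comprised 38 of the 27024 genes listed after repeated rows were merged, taken by symbol through their Ensembl identifiers. No measured value entered this rule, but the genes were chosen with earlier results of these data known. The 38 genes were 13 integrin α subunits, 8 integrin β subunits, 9 laminin chains, and 8 genes that included fibronectin, dystroglycan and the kinases and adaptors of focal adhesions. The RNA-seq data came from 3 libraries of total RNA of 22Rv1 WT cells, numbered as replicates 1 to 3 in the labels. 22Rv1 is a widely used line of human prostate carcinoma cells. The cells were untreated and grown in serum-containing RPMI1640 medium, with the enhancer studied by the authors left intact. The study calls the WT samples biological replicates in its results and control clones in its methods, and the labels name no separate cultures. The SD below measures the spread between these libraries, which may be technical. Every p-value below sets that spread against counting error alone or, where stated, against counting error with an added dispersion. Libraries of edited cells were not analysed here, and no comparison between conditions was made.

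Integrins are receptors at the cell surface built from an α and a β subunit. The pair decides which matrix protein is bound: some α subunits recognize collagen, some laminin, and others the RGD motif of fibronectin and vitronectin. Inside the cell the β tail binds talin and kindlins, which activate the receptor and join it to actin, and focal adhesion kinase signals from the same site. Laminins are secreted trimers of an α, a β and a γ chain and form the network of the basement membrane. In the normal prostate this membrane lies under the basal cells, and hemidesmosomes built on the α6β4 integrin anchor those cells to it. Dystroglycan is a laminin receptor outside the integrin family and carries the sugar chains that bind laminin.

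Depth was between 35675670 and 38629080 recovered reads in a library. The deposited values are normalized counts, which are reads divided by 1 size factor per library. A gene was called expressed when it reached 1 CPM (edgeR's usual unit of reads scaled by library size, here after TMM) in all 3 libraries. By this rule 26 of the 38 adhesion genes (68.4%) were expressed, against 12877 of all 27024 genes (47.7%). Of the reads in a library, 0.198% to 0.207% fell on the adhesion genes. Markers of luminal prostate cells were present, with 9 of 9 expressed and a summed level between 101898 and 103120 normalized counts, and 0 of 4 basal markers were expressed, with KRT5, KRT14 and TP63 at 0 and a sum between 13.5 and 24.5. In bulk RNA, fewer cells with a transcript and less transcript per cell cannot be told apart.

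The sequence upstream of the adhesion genes was read from RefSeq promoter windows, which cover 29 of the 38 genes, and the count of CG dinucleotides in the 250 bases before the start was taken, from the start with the most CG pairs where a gene has several. The 22 expressed adhesion genes with a window had a median of 25 CG pairs (between 6 and 36), and the 7 adhesion genes that were not expressed had a median of 5 (between 0 and 23). Over all genes with a window the medians were 23 for 10339 expressed genes and 5 for 6968 others, so the adhesion genes lay close to the genome at large. The following windows show a CG-rich and a CG-poor window of expressed genes (LAMC1 and ITGAE) and a CG-rich and a CG-poor window of genes that were not expressed (ITGA8 and ITGB6). They were picked after the CG counts and levels were known. Each is written 5′ to 3′ on the strand of the gene with its position in GRCh37, and capitals mark the CG pairs.
LAMC1 (chr1:182992305-182992554, plus strand): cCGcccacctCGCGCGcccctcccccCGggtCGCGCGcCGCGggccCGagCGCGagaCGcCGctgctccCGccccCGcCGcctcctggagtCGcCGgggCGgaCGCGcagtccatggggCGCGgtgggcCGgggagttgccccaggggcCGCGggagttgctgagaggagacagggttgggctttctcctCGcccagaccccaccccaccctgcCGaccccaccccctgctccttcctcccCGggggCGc
ITGAE (chr17:3704483-3704732, minus strand): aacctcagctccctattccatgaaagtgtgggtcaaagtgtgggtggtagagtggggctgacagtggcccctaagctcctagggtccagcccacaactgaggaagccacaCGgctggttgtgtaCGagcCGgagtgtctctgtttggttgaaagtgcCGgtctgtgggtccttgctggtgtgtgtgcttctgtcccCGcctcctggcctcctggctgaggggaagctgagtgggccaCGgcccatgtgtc
ITGA8 (chr10:15761922-15762171, minus strand): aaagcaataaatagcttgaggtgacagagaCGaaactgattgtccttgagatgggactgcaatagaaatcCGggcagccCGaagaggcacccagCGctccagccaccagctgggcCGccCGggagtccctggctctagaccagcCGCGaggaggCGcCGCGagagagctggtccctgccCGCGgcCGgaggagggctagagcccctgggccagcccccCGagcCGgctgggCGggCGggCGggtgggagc
ITGB6 (chr2:161056784-161057033, minus strand): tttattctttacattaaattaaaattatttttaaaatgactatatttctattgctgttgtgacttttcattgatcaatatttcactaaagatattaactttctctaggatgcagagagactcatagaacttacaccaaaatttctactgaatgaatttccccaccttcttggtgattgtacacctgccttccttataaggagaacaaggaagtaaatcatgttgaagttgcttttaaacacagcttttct
The windows hold 32, 6, 19 and 0 CG pairs in that order. LAMC1 and ITGA8 both have many, although LAMC1 was among the most abundant adhesion genes and ITGA8 had at most 5 reads in a library. ITGAE was expressed from a start with few. The GC box (GGGCGG on either strand), a motif bound by factors of the Sp family, was in the windows of 18 of the 22 expressed adhesion genes and of 1 of the 7 others, and in 57.2% of all 17307 gene windows. The share over all genes was not split by expression, so the difference between expressed and other adhesion genes has no matching background. The motif TATAAA, searched on either strand, was in 0 of the 29 windows of adhesion genes and in 8.92% of all gene windows. A match is a description of these letters and does not show that a factor was bound.

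Levels differ between genes of different length at the same number of molecules, so genes were compared with each other as normalized counts per kb of the canonical transcript. The expressed adhesion genes had longer transcripts than expressed genes at large, with a median of 5.57 kb against 3.33 kb. Their median level per kb was 195, against 315 for all expressed genes, and 11 of the 26 were above the latter value. The highest adhesion gene per kb was ITGB1, at 2165 ± 48.1 normalized counts per kb (SD, n = 3), above 91.4% of all expressed genes. It was also first with the longest transcript, but with the union of all annotated exons it was at 555 and stood at rank 5, below LAMC1 (1017), DAG1 (958), ITGB5 (839) and TLN1 (617). On the canonical transcript DAG1 (1278 ± 35.2), ITGB5 (1231 ± 32.3) and LAMC1 (1083 ± 45.7) followed. The ranges over the 3 libraries overlapped in 7 of the 25 pairs of neighbours in this order, namely DAG1 and ITGB5, PTK2 and ITGAV, LAMB2 and FERMT2, LAMB1 and ILK, ITGAE and ITGA2, ITGA7 and FN1, and ITGA6 and LAMB3, so the order within those pairs is not settled. Other neighbours changed places with the length used: TLN1 was below VCL on the canonical transcript (710 against 923) and above it with the exon union (617 against 508) and the longest transcript (706 against 634).

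**Figure D1:**
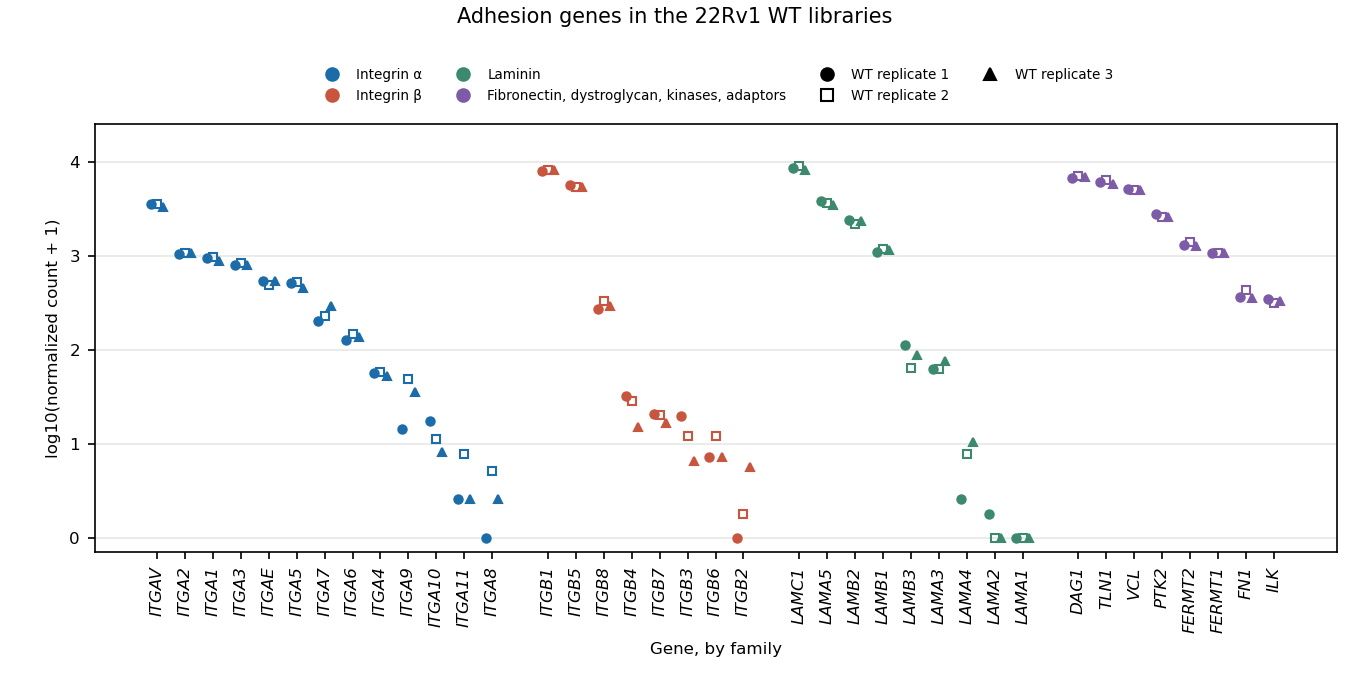
The value of each of the 38 adhesion genes is shown in each of the 3 WT libraries as log10 of the normalized count plus 1 (y axis), by gene within family (x axis). Circles, squares and triangles are replicates 1, 2 and 3. LAMC1 and ITGB1 stand at the top and LAMA1 at 0 in all 3 libraries.

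Of the 13 integrin α subunits, 9 were expressed. ITGAV, which pairs with several β subunits and binds RGD ligands such as vitronectin, was the most abundant. Its normalized count was 3514.2 in replicate 1, 3594 in replicate 2 and 3267.2 in replicate 3 (mean 3458 ± 170, SD, n = 3). Per kb it supplied 39.9% ± 1.12 of the summed α subunits (SD, n = 3). ITGA5, the α subunit of the classical fibronectin receptor, had 516.7, 524.7 and 451.1 normalized counts. Replicate 3 was the lowest for both RGD-binding subunits. ITGA8, the other RGD-binding subunit, had 0, 5 and 2 reads.

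The collagen-binding α subunits were represented by ITGA2 and ITGA1, which are neighbours on chromosome 5. ITGA2 had 1045.3, 1081.5 and 1069.9 normalized counts (1066 ± 18.5, SD, n = 3). ITGA1 had 938.6, 974.9 and 884.9 normalized counts (933 ± 45.3, SD, n = 3). The ranges did not overlap, and together these subunits supplied 18.1% ± 0.143 of the summed α subunits per kb. With the exon union their share was 28.4%, next to 27.4% for ITGAV. ITGA10 had 21, 12 and 9 reads and ITGA11 had 2, 8 and 2 reads, so neither reached the level for expression.

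All 3 α subunits that bind laminin were expressed, and they supplied 20.1% ± 1.33 of the summed α subunits per kb (SD, n = 3). ITGA3, which binds laminins that carry the α3 or α5 chain, had 794, 832.7 and 806.9 normalized counts. ITGA6, the α subunit of both the α6β1 and the α6β4 receptor, was far lower, at 126.4, 144.7 and 134.6 normalized counts. The ratio of ITGA3 to ITGA6 per kb was 7.15 ± 0.314 (SD, n = 3), and 4.10 with the exon union. ITGA7, best known as the laminin receptor of muscle, had 202.3, 229.3 and 293.7 normalized counts. Replicate 3 was the highest for ITGA7, unlike for ITGAV and ITGA5.

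The remaining α subunits were ITGAE, ITGA4 and ITGA9. ITGAE, known from intraepithelial lymphocytes, where with ITGB7 it binds E-cadherin, had 543.6, 490 and 533 normalized counts. Its only known partner, ITGB7, had 25, 23 and 20 reads, and the ratio of ITGAE to ITGB7 per kb was 21.3 ± 3.37 (SD, n = 3). As 52.4% of the ITGB7 canonical transcript lies over exons of ZNF740 on the opposite strand, this ratio is uncertain beyond its SD. Of 6 leukocyte markers 1 was expressed (CD68), PTPRC had a mean of 0.533 normalized counts, CD3E was at 0 and the summed level was between 78.6 and 96.8. ITGA4, a receptor subunit for fibronectin and VCAM1, was low, at 55.3, 57.5 and 51.2 normalized counts. Of its canonical transcript 41.5% lies over exons of CERKL on the opposite strand, which had 10.7 ± 7.36 normalized counts (SD, n = 3). ITGA9, which binds tenascin-C among others, had 17, 56 and 44 reads and was below 1 CPM in replicate 1.

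**Figure D2:**
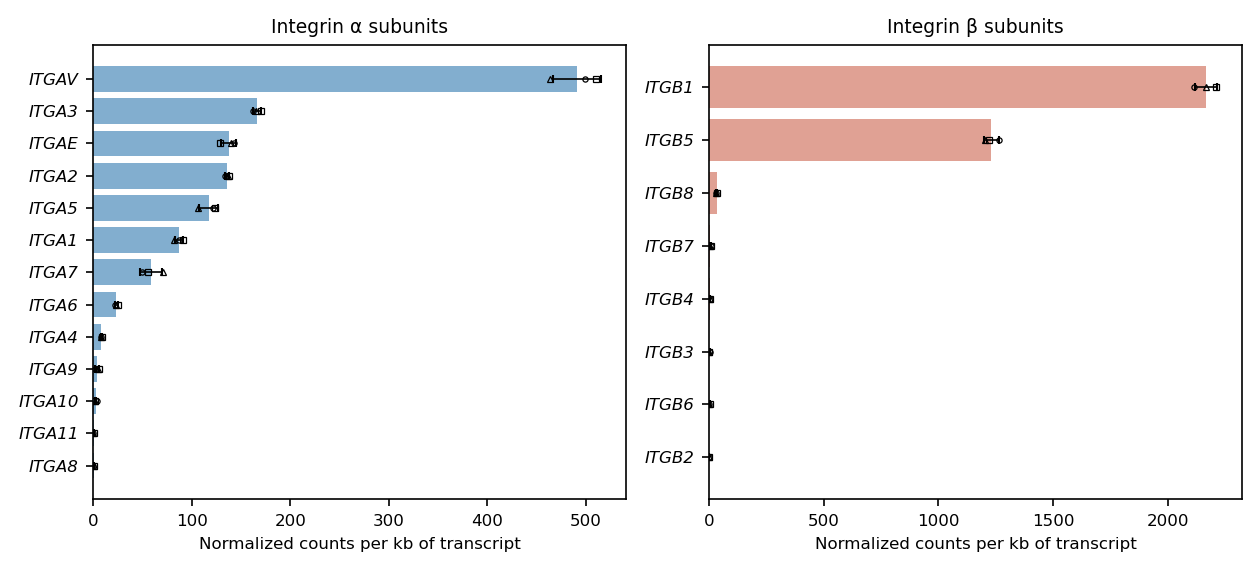
Bars give the mean normalized counts per kb of canonical transcript (x axis) of the integrin α subunits (left) and β subunits (right) over 3 WT libraries. Error bars are the SD, and circles, squares and triangles are replicates 1, 2 and 3. The axes differ in scale: ITGAV reaches 491 and ITGB1 2165.

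The β subunits were concentrated on few genes, with 3 of 8 expressed. ITGB1 (chr10:33176201-33294720, minus strand), the partner of most α subunits, had 7903, 8261.9 and 8097 normalized counts (8087 ± 180, SD, n = 3). ITGB5 (chr3:124480795-124620265, minus strand), which pairs with ITGAV in a vitronectin receptor, had 5621.3, 5430.4 and 5340 normalized counts (5464 ± 144, SD, n = 3). Together they supplied 98.6% ± 0.109 of the summed β subunits per kb. ITGB8, another partner of ITGAV, known for activating latent TGF-β, was also expressed, at 270.2, 330.9 and 293.7 normalized counts. The other 5 β subunits were not. ITGB4, the hemidesmosomal subunit, had 40, 33 and 18 reads. ITGB3, the β subunit of platelets and endothelium, had 24, 13 and 7 reads, and ITGB6, an epithelial partner of ITGAV, had 8, 13 and 8. ITGB2, restricted to leukocytes, had 0, 1 and 6 reads.

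Summed per kb, α subunits came to 1231 ± 28.9 and β subunits to 3444 ± 38.7 normalized counts (SD, n = 3), a ratio of 0.357 ± 0.00479. The ratio was 0.359, 0.361 and 0.352 in replicates 1, 2 and 3, so β transcripts outnumbered α transcripts in each library on this length. Among partners, ITGB5 exceeded ITGAV by 2.51 ± 0.101 times per kb (SD, n = 3), and by 4.69 times with the exon union. ITGB1 exceeded the sum of its 12 possible α partners by 1.98 ± 0.0527 times. With the exon union this ratio was 0.970 and with the longest transcript 1.44, so its direction depends on the length used. The SD of such ratios covers the spread between libraries and not the choice of length.

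Of the 9 laminin chains, 6 were expressed, and each chain class was held mostly by a single gene or a pair of genes. LAMC1 (chr1:182992555-183114727, plus strand), the γ1 chain found in most laminins, had the highest level of the 38 genes before correction for length, with 8551.6, 8969.4 and 8248.2 normalized counts (8590 ± 362, SD, n = 3). LAMA5 (chr20:60883011-60942368, minus strand), the α chain of the main laminins of adult epithelia, had 3864.2, 3649 and 3460.8 normalized counts and supplied 97.8% ± 0.465 of the summed α chains per kb. LAMA3, the α chain of the epidermal anchoring laminin, had 61.6, 60.9 and 74.8 normalized counts. The other laminin α genes were near or at 0. LAMA4, a chain of vessels and mesenchyme, had 2, 8 and 12 reads, and LAMA2, the chain of muscle, had 1, 0 and 0. LAMA1, an embryonic chain, had 0 reads in each library, which allows at most 0.0840 CPM by the limit of 3 reads, for counting error only.

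All 3 laminin β chains were expressed. LAMB2 had 2426.3, 2175.7 and 2338.2 normalized counts, and LAMB1 had 1099.8, 1175.4 and 1162. Both chains can join LAMA5 and LAMC1, and LAMB2 exceeded LAMB1 by 2.01 ± 0.176 times per kb (SD, n = 3), with 2.19, 1.84 and 2.00 in the 3 libraries. With the exon union the ratio was 5.48. LAMB3, which pairs with LAMA3, had 111.4, 63.5 and 88.2 normalized counts and supplied 3.44% ± 0.834 of the β chains. LAMC1 exceeded the summed β chains by 1.72 ± 0.128 times and the summed α chains by 3.32 ± 0.170 times per kb.

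**Figure D3:**
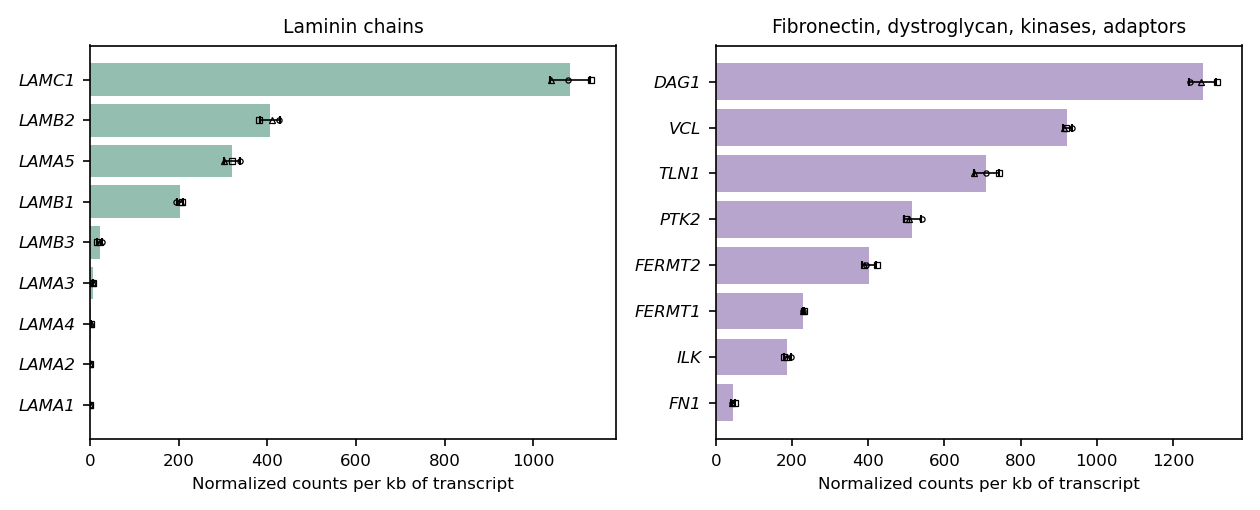
Bars give the mean normalized counts per kb of canonical transcript (x axis) of the laminin chains (left) and of fibronectin, dystroglycan, kinases and adaptors (right) over 3 WT libraries, with the SD as error bars and circles, squares and triangles for replicates 1, 2 and 3. LAMC1 stands at 1083 and DAG1 at 1278, and FN1 at 45.5 is the lowest of the right-hand panel.

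FN1, the gene of fibronectin, a soluble and fibrillar ligand of ITGA5 and ITGAV integrins, was low, with 360.3, 429.9 and 354.3 normalized counts. LAMC1 exceeded it by 23.9 ± 1.63 times per kb (SD, n = 3), and by 46.1 times with the exon union. DAG1 (chr3:49506146-49573051, plus strand), which encodes both subunits of dystroglycan, had 6710, 7086.5 and 6862.6 normalized counts (6886 ± 189, SD, n = 3).

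The 6 genes of kinases and adaptors were all expressed. TLN1, which encodes the talin that links integrin β tails to actin, had 6112.7, 6412.9 and 5847 normalized counts. VCL, encoding vinculin, which binds talin under tension, varied little, with 5143.3, 5046.2 and 5024.3. PTK2, encoding focal adhesion kinase, had 2778.7, 2560.7 and 2609.8. These are large, widely used adhesion proteins, and their levels per kb were 710, 923 and 516. The kindlin FERMT2, the widespread form, had 1295.7, 1388.7 and 1278.5 normalized counts. FERMT1, the kindlin of epithelial cells, had 1060.3, 1068 and 1064.4, with the smallest SD relative to the mean of the 26 expressed genes, 0.362%. The ratio of FERMT1 to FERMT2 per kb was 0.572 ± 0.0236 (SD, n = 3). ILK, a pseudokinase that holds the adaptor complex at the β tail, had 346.8, 315.7 and 328.3 normalized counts. Of its canonical transcript, 86.9% lies over exons of TAF10 on the opposite strand, a gene with 1665 ± 65.6 normalized counts (SD, n = 3). For ITGB7 the share was 52.4%, with ZNF740 at 2637 ± 153. Whether reads were counted by strand is not given in the sources used here, so the levels of ILK, ITGB7 and ITGA4 are uncertain, and the part of the overlap in them was not tested.

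Around these genes, other parts of the adhesion machinery were read from lists that hold none of the 38 genes. Of 5 other integrin subunits 1 was expressed, ITGA2B, the platelet partner of ITGB3, at 53.6 ± 9.06 normalized counts (SD, n = 3). ITGAL had 13.5 ± 3.05, and ITGAM, ITGAX and ITGAD, all leukocyte subunits like ITGAL, were at 0 in each library. Of 16 other laminin and basement membrane genes 10 were expressed. The highest per kb were AGRN, encoding agrin, which links laminin to dystroglycan, at 760 ± 4.50 normalized counts per kb, and COL4A5, a collagen IV chain, at 268 ± 4.09.

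Of 19 interstitial and soluble ligands 12 were expressed, led per kb by NPNT, encoding nephronectin, a ligand of ITGA8, at 476 ± 13.1 normalized counts per kb, and TNC, encoding tenascin-C, at 450 ± 31.5. ITGA8, a receptor subunit for nephronectin, was not expressed. ITGA9, one for tenascin-C, missed the rule through replicate 1 alone, with 0.444, 1.57 and 1.14 CPM in replicates 1, 2 and 3. Of 8 fibroblast markers 2 were expressed (COL1A1 and LUM), with a summed level between 449 and 504 normalized counts, and COL1A2, another marker of them, had a mean of 0.267. The 4 endothelial markers with a row summed to between 1.6 and 4 normalized counts, with CDH5 and KDR at 0.

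Of 32 other focal adhesion proteins 28 were expressed, and the highest per kb were ACTN4, an actin-bundling α-actinin, at 4376 ± 197, and PTK2B, the kinase related to PTK2, at 1688 ± 38.8. Of 4 hemidesmosome genes 3 were expressed. CD151, a tetraspanin bound to laminin-binding integrins, had 4895 ± 158 normalized counts per kb and PLEC, encoding plectin, had 522 ± 26.9, whereas COL17A1, the transmembrane collagen of hemidesmosomes, had a mean of 0.800 normalized counts. Of 24 genes of the dystroglycan complex and its glycosylation 21 were expressed, led by POMGNT1, a glycosyltransferase acting on dystroglycan, at 1527 ± 40.5 normalized counts per kb, and SGCE, a sarcoglycan, at 907 ± 29.1.

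The spread between libraries is the only comparison that a single group allows. For the 26 expressed adhesion genes the SD was a median of 4.80% of the mean, against 4.88% for all expressed genes, and the highest library exceeded the lowest by less than 1.2 times for 21 of them. The exceptions were LAMB3 (1.75 times), ITGA7 (1.45), LAMA3 (1.23), ITGB8 (1.22) and FN1 (1.21). A chi-square test compared the reads of each gene over the 3 libraries with the TMM library sizes and took reads as independent. Genes averaging 10 reads or more entered it, with Benjamini-Hochberg adjustment over all of them. Of 14646 genes tested, 6141 passed (41.9%). Of the 38 adhesion genes 31 were tested, since 7 had too few reads, and 17 passed, which is 54.8% of those tested. In the other lists 0 of 2 integrin subunits, 3 of 14 basement membrane genes, 7 of 16 interstitial and soluble ligands, 12 of 30 focal adhesion proteins, 3 of 3 hemidesmosome genes and 6 of 21 genes of the dystroglycan complex passed.

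The trended dispersion of edgeR was estimated from these same libraries, so it takes in the spread under test and is no independent check. When it was added to the variance, as an allowance for spread between replicates, 61 of the 14646 genes (0.416%) passed. Of the adhesion genes 0 passed, nor did any gene of those other lists. At an unadjusted p under 0.05 the counts were then 802 genes (5.48%) and 1 adhesion gene, ITGA9. The calls below therefore rest on the assumption that reads are independent.

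**Figure D4:**
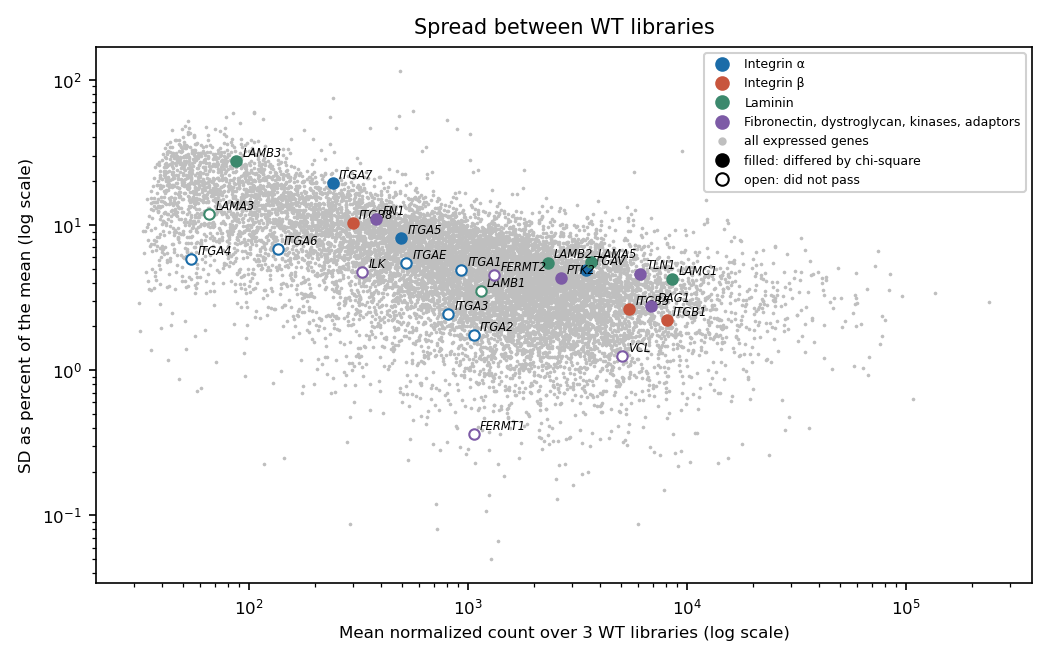
The SD as a percentage of the mean (y axis, log scale) is plotted against the mean normalized count over 3 WT libraries (x axis, log scale) for all 12877 expressed genes (grey) and the 26 expressed adhesion genes (coloured by family). Filled points differed between libraries by the chi-square test. LAMB3 at 27.3% and ITGA7 at 19.4% lie above 88.2% and 95% of the 500 genes nearest in level, and FERMT1 at 0.362% lies above 0.4%.

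Among the integrins, ITGAV, ITGA5, ITGA7, ITGA9, ITGB1, ITGB3, ITGB4, ITGB5 and ITGB8 differed between libraries. ITGA7 had an SD of 19.4% of its mean, larger than for 95% of the 500 genes nearest in level, and was highest in replicate 3 (chi-square, adjusted p = 0.000116). ITGA9, with few reads, was lowest in replicate 1 (chi-square, adjusted p = 9.4e-05). ITGAV differed by 1.10 times between its lowest and highest library, replicates 3 and 2 (chi-square, adjusted p = 0.000105). Of the 17 genes that passed, 9 had an SD under 6% of the mean, ITGAV among them. Among the laminins, LAMC1 (chi-square, adjusted p = 3.3e-08), LAMA5 (4.4e-06), LAMB2 (0.00137) and LAMB3 (0.00187) differed, and LAMB1 and LAMA3 did not pass. TLN1 (chi-square, adjusted p = 5e-07), DAG1, PTK2 and FN1 differed as well, and VCL, ILK, FERMT1 and FERMT2 did not pass.

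The direction was shared in part. Of the 17 genes that differed, 9 were highest in replicate 2, 7 in replicate 1 and 1 in replicate 3. The same split was not made over all genes that passed. Over all 26 expressed adhesion genes, 16 (61.5%) were highest in replicate 2, against 32.5% of all expressed genes. For replicate 1 the shares were 30.8% and 31.5%, and for replicate 3 they were 7.69% and 36.0%. In replicate 2 the deviation of a gene from its mean went with transcript length across expressed genes (Spearman's rho 0.311, a description over genes that share libraries) and with GC content (-0.222). In replicates 1 and 3 the rho was -0.090 and -0.225 for length, and 0.196 and 0.049 for GC content. When the trend with both was removed from the expected reads, 11 of the 31 adhesion genes tested passed. ITGB1, ITGB5, ITGB8, LAMC1, FN1 and TLN1 no longer did. Over all genes 5297 then passed, against 6141 before, and only genes of known transcript length and GC content entered that test. Leaving out replicate 1, 2 or 3 left 9 of 33, 10 of 31 and 11 of 32 tested adhesion genes that differed. Over all genes the counts were 3950, 3323 and 3447. How many of all genes were tested is not given for these settings or for the trend, so no share over all genes stands beside these counts. ITGA7 passed without replicate 1 and without replicate 2 and did not pass without replicate 3.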

How the data were processed

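RNA-seq values of 3 libraries of 22Rv1 WT cells were used. Per the labels and the methods, the authors isolated total RNA with TRIzol, sequenced paired-end reads, aligned these to hg19 (HISAT2), assigned them to genes (HTSeq) and scaled the counts (DESeq2). The HISAT2 version, the annotation release, strandedness and the treatment of reads mapping to several places are not given in the sources used here. The deposited signal per gene is a normalized count, that is, reads over a size factor (1.27, 1.18 and 1.27 in the 3 libraries), kept to 1 decimal. Whole reads were recovered from it for all values, and the recovery and the test were checked on simulated data. Of 29000 rows, 1976 repeated the row above in all 3 libraries and were merged, which removed between 10.6% and 10.7% of the reads, and no adhesion gene was among them. Recovered reads were 38252744, 35675670 and 38629080 per library. Symbols matched 86.3% of the identifiers.

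Library sizes (TMM) and trended dispersion came from edgeR 4.0.16 in R 4.3.3, and the chi-square tests from scipy 1.17.1. Genes averaging 10 reads or more were tested, with Benjamini-Hochberg adjustment over all genes and a threshold of 0.05. Gene positions, canonical transcripts and overlaps came from GENCODE 44 lifted to GRCh37. RefSeq promoter windows are given on GRCh38.p14, and the 4 printed were matched to GRCh37, with 1 exact match each. To look for near-identical copies, transcripts were aligned with minimap2 2.31, and 0 adhesion genes were flagged (cut-offs: identity 90%, share of length 10%). Exons shared at one locus went unflagged. In ITGB3, 2266 exon bases (33.2% of its exon union) also belong to another protein-coding gene on the same strand. The 0 therefore does not show that copies are absent, and their part in the levels was not tested. Every one of the 38 genes is named, and of each other list the pair of genes highest per kb; other genes were named after their values were seen. The genes and lists were chosen with earlier results of these data known. Alternatives were other scalings (DESeq2 1.42.0 among them), thresholds, transcript lengths, an added dispersion, a length and GC trend, and leaving out each replicate. COL1A1, COL1A2 and COL3A1 stand both in the ligand list and among the fibroblast markers. Limits of 3 reads, like the chi-square test, cover counting error alone.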

Additional observations from a re-analysis of the deposited data

How the results depend on the processing

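Another scaling moved the mean level of an adhesion gene by at most 1.22%. Leaving out a replicate cannot move a mean of 3 by more than its SD, but it moved genes of a few reads far, ITGB2 from 1.83 to 0.4, ITGA8 from 1.93 to 0.8 and ITGA11 from 3.33 to 1.6 normalized counts. The number expressed was 26 and lay between 25 and 27 under the other thresholds, without merging of rows, and with each replicate left out. Of the 10 highest genes per kb, 9 stayed among the highest 10 with the union of exons and with the longest transcript. The ratio of α to β integrin transcripts per kb, 0.357, was 0.457 with the union of exons and 0.419 with the longest transcript, which follows from the lengths themselves. Over all genes, 6141 differed between libraries and between 5297 and 6676 did under other scalings, other minimum reads and removal of the length and GC trend, but 61 with trended dispersion and between 3323 and 3950 with a replicate left out, where fewer libraries were tested. Of the adhesion genes, 17 differed, and 14 or more under other scalings and minimum reads, 11 after removal of the trend, 0 with trended dispersion, and between 9 and 11 with a replicate left out. How many of all genes were tested is not given for other minimum reads, the trend or a replicate left out, so these counts have no shares to compare. With a minimum mean of 1 read ITGB8 was lost and ITGB2 gained. Without replicate 1 ITGA9, ITGB1, ITGB3, ITGB4, ITGB5, ITGB8, LAMB3, DAG1 and PTK2 were lost and FERMT2 was gained, without replicate 2 ITGA5, ITGB1, ITGB8, LAMB2, LAMB3, FN1 and DAG1 were lost, and without replicate 3 ITGA7, ITGA5, ITGAV, ITGB3, ITGB4 and ITGB5. No paired analysis was possible because the samples form 1 group. Genes averaging under 10 reads stayed out of the main test, and 36 of the 38 genes entered it at a minimum of 1 read.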

Other observations

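Some genes of the same matrix complex, and some pairs of related genes, were listed at different levels, and they were picked after their values were seen. COL4A1 was listed at 0 in each library, and whether this is its level or a matter of identifier or annotation was not tested, whereas COL4A2, the collagen IV chain that joins it in the common trimer, had 110.6, 154.9 and 178.7 normalized counts. COL1A1 had 278.1, 243.7 and 261.4 normalized counts, and COL1A2, the other chain of collagen I, had 0, 0.8 and 0. DMD, encoding dystrophin, had 53.7, 115.1 and 80.3 normalized counts, with replicate 1 the lowest (chi-square, adjusted p = 1.0e-05). That test passed 41.9% of all genes tested, and DMD did not pass with dispersion added (chi-square with trended dispersion, adjusted p = 0.709). The related UTRN, encoding utrophin, had 240.2, 282.6 and 265.3. PTK2B had 1688 ± 38.8 normalized counts per kb and PTK2 516 (mean of n = 3).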
